A study of Mus musculus with 8 samples.

Results

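The mitochondrial fusion and fission genes were examined in peak lists of MOF, Rfx2, H3K4me3 and H3K27Ac from newborn mouse epidermis. They were 10 genes chosen by name (Opa1, Mfn1, Mfn2, Dnm1l, Fis1, Mff, Mief1, Mief2, Oma1 and Yme1l1) out of 26180 genes with a curated RefSeq transcript, and the rule that chose them uses no measured value, although earlier results of these data were known when they were chosen. Each was scored for peaks at its promoter, taken as 1 kb upstream to 100 bp downstream of any annotated transcription start site (TSS) and overlapped by at least 1 bp, and for peaks elsewhere in the gene body. All libraries came from the total epidermis of Wildtype mice at postnatal day 0.5, and the labels name no other allele, transgene or treatment. MOF (also called Kat8), the acetyltransferase of histone H4 lysine 16, was mapped by ChIPseq, in which an antibody pulls down fixed and sheared chromatin. Rfx2, a transcription factor that binds the X-box of ciliary gene promoters, and the marks H3K4me3 (active promoters) and H3K27Ac (active promoters and enhancers) were mapped by Cut&Run, in which a nuclease tethered to the bound antibody cuts out the surrounding fragments for sequencing. Each antibody had 1 list, so no value below has a replicate error and no test was possible, and counts over the genes are set beside the same counts over all genes.

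Mitochondria continually fuse and divide, and the balance of both sets their length and number. The mitofusins Mfn1 and Mfn2 join the outer membranes, and the dynamin-like GTPase Opa1 joins the inner membranes and shapes the cristae. The inner membrane proteases Oma1 and Yme1l1 cut Opa1 into long and short forms, of which the long forms carry fusion. For division, the cytosolic GTPase Dnm1l (also called Drp1) is recruited to the outer membrane by the receptors Mff, Mief1 (MiD51) and Mief2 (MiD49), while Fis1 is an outer membrane protein that was first known as a fission factor. Skin epidermis renews throughout life, and its cells lose their mitochondria as they cornify.

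The sequences just upstream of the TSS are shown for the promoters on which the results below turn. Opa1, Oma1 and Yme1l1 carried the MOF peaks with the highest scores among the 10 genes, Mfn1 and Mief2 carried none, and Fis1 carried a MOF peak at each of its annotated starts. Each line gives the 180 bases that end at the base before the TSS, 5′ to 3′ on the plus strand, which is the strand of these genes, from RefSeq on GRCm38.p6 (the mm10 assembly). Capitals mark matches on either strand that lie wholly in the stretch, to NRF1 (GCGCANGCG), YY1 (AANATGGC), ETS (CCGGAAG), SP1 (GGGCGG), E-box (CACGTG), CRE (TGACGTCA), ZNF143 (ACTACAA) or the X-box (GTNNCC and GGNNAC, 0 to 3 bases apart).
Opa1, chr16:29579154-29579333: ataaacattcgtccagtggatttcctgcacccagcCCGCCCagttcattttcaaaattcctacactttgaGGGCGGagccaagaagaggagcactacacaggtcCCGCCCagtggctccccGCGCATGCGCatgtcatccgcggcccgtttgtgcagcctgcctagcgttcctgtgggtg
Oma1, chr4:103313666-103313845: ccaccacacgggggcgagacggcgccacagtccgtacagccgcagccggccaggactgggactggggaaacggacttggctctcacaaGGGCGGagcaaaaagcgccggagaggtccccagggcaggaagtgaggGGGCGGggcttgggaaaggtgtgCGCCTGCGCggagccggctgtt
Yme1l1, chr2:23156325-23156504: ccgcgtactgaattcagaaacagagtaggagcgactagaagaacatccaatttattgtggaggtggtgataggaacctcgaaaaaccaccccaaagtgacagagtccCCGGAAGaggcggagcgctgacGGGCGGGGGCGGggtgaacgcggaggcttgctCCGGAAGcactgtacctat
Mfn1, chr3:32529302-32529481: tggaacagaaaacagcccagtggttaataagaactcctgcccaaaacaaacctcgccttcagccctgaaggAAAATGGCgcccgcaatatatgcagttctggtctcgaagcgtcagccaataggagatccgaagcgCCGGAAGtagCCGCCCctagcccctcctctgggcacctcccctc
Mief2, chr11:60728218-60728397: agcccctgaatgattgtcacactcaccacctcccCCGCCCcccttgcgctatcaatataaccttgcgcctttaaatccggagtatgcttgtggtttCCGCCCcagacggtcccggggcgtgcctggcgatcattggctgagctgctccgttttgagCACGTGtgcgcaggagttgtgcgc
Fis1 principal TSS, chr5:136961897-136962076: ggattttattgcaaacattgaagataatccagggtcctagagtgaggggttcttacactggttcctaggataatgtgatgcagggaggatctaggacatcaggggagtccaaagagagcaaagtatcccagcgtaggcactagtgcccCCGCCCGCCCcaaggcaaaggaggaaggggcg
Fis1 upstream TSS, chr5:136953095-136953274: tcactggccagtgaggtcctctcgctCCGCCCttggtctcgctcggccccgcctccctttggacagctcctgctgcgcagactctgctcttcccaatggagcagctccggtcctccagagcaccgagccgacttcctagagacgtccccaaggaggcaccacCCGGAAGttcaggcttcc

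Opa1 held matches of NRF1 on both strands that overlapped by all but 1 base on each side, from 59 to 50 bp upstream of its TSS, and Oma1 held 1 from 22 to 14 bp upstream. Yme1l1 held 2 ETS matches in the stretch shown. Of the genes without MOF, Mfn1 held matches of YY1, ETS and SP1, and Mief2 held an E-box and SP1 matches. A match is a run of letters and not evidence of binding.

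The lists were unequal in size and kind. The MOF list held 17546 peaks, of which 5220 lay at promoters, and gave each peak a score of unstated scale. It holds more peaks than the MOF call the study describes, so that it may be another call, and each MOF count below rests on it. The Rfx2 list held 337 peaks (255 at promoters), the H3K4me3 list 27039 (13314) and the H3K27Ac list 30736 (10801), and these gave a fold enrichment, a −log10 q-value and a summit. Heights were therefore ranked only within a list, and no library's depth can be read from them. By the study's reporting notes the Rfx2 library had the fewest mapped reads of the libraries used. Of 8 keratinocyte markers, 7 had H3K4me3 and 7 had H3K27Ac within 2.5 kb of a TSS, while in the promoter window itself Krt5, Trp63, Krt1 and Krt10 had no H3K27Ac peak. Within the same 2.5 kb, H3K4me3 and H3K27Ac lay at 4 and 1 of 6 fibroblast markers, at 4 and 3 of 6 melanocyte markers, at 1 and 1 of 4 endothelial markers and at 0 and 0 of 5 immune markers, Ptprc among them, so that marks lay at some genes of other cell types, and the part of such cells in the peaks below was not tested.

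All 10 fusion and fission genes had an H3K4me3 peak at the promoter, against 54.0% of all genes, and all 10 had an H3K27Ac peak, against 44.1% of all genes and 79.8% of genes with H3K4me3. A MOF peak lay at 8 of the 10 promoters, against 23.7% of all genes. Of the 6194 genes with MOF, 5933 also had H3K4me3, so a closer background is the 14132 genes with H3K4me3 at the promoter, of which 42.0% had MOF. The 2 genes without a MOF peak were Mfn1 and Mief2. No member had an Rfx2 peak at the promoter, and only 1.21% of all genes had one. At that share a count of 0 of 10 does not set the group apart from other genes.

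**Figure D1:**
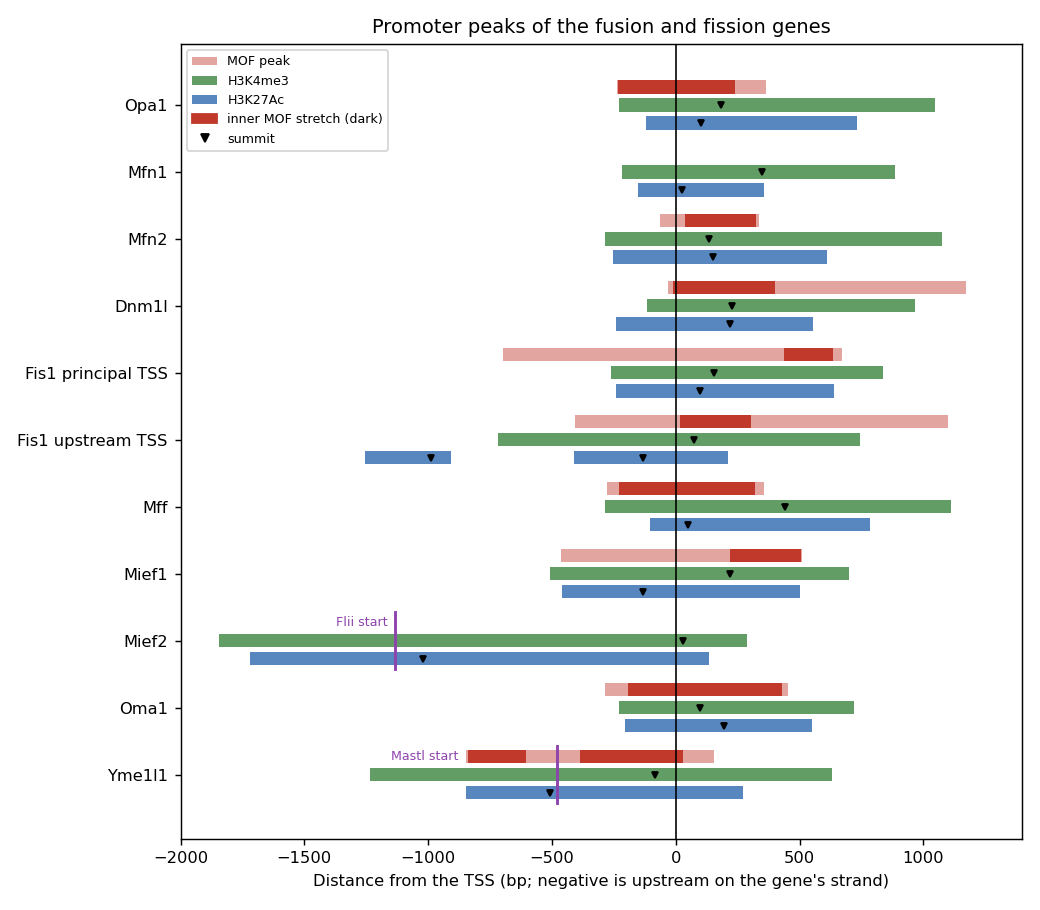
Promoter peaks of the 10 genes by distance from the TSS in bp, with upstream to the left on each gene's own strand, and with both starts of Fis1. Bars span the MOF (red), H3K4me3 (green) and H3K27Ac (blue) peaks, the darker red marks the inner stretches that the MOF list gives, triangles mark summits and purple lines mark the starts of opposite-strand genes; MOF is missing at Mfn1 and Mief2, and the peaks of Mief2 and Yme1l1 reach a neighbouring start.

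Among the fusion genes, Opa1 and Mfn2 had MOF at the promoter and Mfn1 did not. Opa1 (chromosome 16, plus strand, 75.3 kb, 29 exons) had a MOF peak at chr16:29579097-29579696, 600 bp wide, with a score of 1116. That score ranked 575 of 5220 promoter peaks (percentile 88.8), and the peak ran from 237 bp upstream to 362 bp downstream of the TSS at 29579334. It covered the whole of exon 1 (238 bp), in which translation starts 206 bp downstream, and the stretch printed above. Of its width, 98.7% lay on the H3K4me3 peak at chr16:29579105-29580381, which was 1277 bp wide with a fold enrichment of 10.9 (percentile 84.2, −log10 q 69.3). The H3K27Ac peak at chr16:29579215-29580063 was 849 bp wide with a fold enrichment of 9.33 (percentile 87.2, −log10 q 16.8). Opa1, Dnm1l and Oma1 were the members whose 3 peaks at the principal start all stood above the median of their lists.

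Mfn1 (chromosome 3, plus strand, 49.7 kb) carried both histone marks high and no MOF. The H3K4me3 peak at chr3:32529266-32530368 was 1103 bp wide, with a fold enrichment of 11.8 (percentile 89.7, −log10 q 64.4) and a summit 350 bp downstream of the TSS, in intron 1. The H3K27Ac peak at chr3:32529329-32529837 was among the narrower ones at 509 bp, with a fold enrichment of 10.9 (percentile 95.2, −log10 q 24.8). Both marks thus stood in the upper ranks at a promoter for which the MOF list had no entry. The nearest MOF peak lay 18014 bp from its TSS (chr3:32510898-32511468, score 423), 591 bp from the start of Zfp639.

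Mfn2 (chromosome 4, minus strand, 31.3 kb) had a MOF peak of low score. It lay at chr4:147904575-147904972, was 398 bp wide and had a score of 339, at percentile 3.63 of the promoter peaks. It was the narrowest and lowest MOF peak among the members. Mfn2 has 3 annotated TSSs within 248 bp, and the MOF peak covered all of them. The H3K4me3 peak at chr4:147903834-147905196 was 1363 bp wide with a fold enrichment of 9.34 (percentile 68.3, −log10 q 55.7). The H3K27Ac peak at chr4:147904301-147905164 was 864 bp wide with a fold enrichment of 5.56 (percentile 35.8, −log10 q 14.4), the lowest principal-start value of that mark among the 10 genes. Both mitofusins carried both marks, and Mfn1, without MOF, stood above Mfn2, with MOF, in each.

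Of the fission genes, Dnm1l, Fis1, Mff and Mief1 had MOF and Mief2 did not. Dnm1l, the GTPase that constricts the organelle (chromosome 16, minus strand, 46.8 kb), had a MOF peak at chr16:16357858-16359063, 1206 bp wide, with a score of 736 (percentile 61.1). It reached 1173 bp into the gene and covered both TSSs, which lie 456 bp apart, while its inner stretch ran from 11 bp upstream to 400 bp downstream of the principal one. The H3K4me3 peak at chr16:16358066-16359148 was 1083 bp wide with a fold enrichment of 12 (percentile 91.0, −log10 q 78.3). The H3K27Ac peak at chr16:16358476-16359272 was 797 bp wide with a fold enrichment of 11.3 (percentile 96.3, −log10 q 27.9). Dnm1l stood high in both marks and near the middle of the MOF list.

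Fis1 (chromosome 5, plus strand, 13.0 kb) has 2 annotated starts 8802 bp apart, and MOF, H3K4me3 and H3K27Ac lay at both. The principal TSS, that of the RefSeq Select transcript, lies at 136962077. There the H3K27Ac peak at chr5:136961835-136962716 (882 bp) had a fold enrichment of 18.0 and a −log10 q of 101, rank 3 of 10801 promoter peaks. The H3K4me3 peak at chr5:136961814-136962913 (1100 bp) had a fold enrichment of 15.1 and a −log10 q of 115, rank 173 of 13314. These were the highest values of both marks among the 10 genes. The MOF peak over the same start was low: it lay at chr5:136961380-136962747, was 1368 bp wide and had a score of 377 (percentile 7.74), and its inner stretch sat from 436 to 635 bp downstream, within intron 1.

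At the upstream start of Fis1 (136953275) the MOF peak was at chr5:136952868-136954372, with a score of 478 (percentile 21.0), and at 1505 bp it was the widest MOF peak of the 10 genes. Its H3K4me3 peak (chr5:136952557-136954019, 1463 bp) had a fold enrichment of 10.4 (percentile 79.6). H3K27Ac made 2 peaks there, at chr5:136952866-136953485 with a fold enrichment of 8.83 (percentile 83.1) and at chr5:136952020-136952365 with a fold enrichment of 3.69 (percentile 7.42). Both marks were thus lower at the upstream start than at the principal one, and the MOF score was higher. The second of these H3K27Ac peaks was the only promoter peak of the 10 genes that covered no TSS.

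Mff, the outer membrane receptor of Dnm1l (chromosome 1, plus strand, 27.5 kb), combined the second highest H3K27Ac peak of the group with a MOF peak near the median. The MOF peak at chr1:82724612-82725244 was 633 bp wide with a score of 651 (percentile 49.5), and its inner stretch ran from 230 bp upstream to 320 bp downstream of the TSS. The H3K27Ac peak at chr1:82724785-82725675 was 891 bp wide with a fold enrichment of 14.2 (percentile 99.6, rank 46, −log10 q 37.7). The H3K4me3 peak at chr1:82724604-82726002 was 1399 bp wide with a fold enrichment of 8.65 (percentile 60.3, −log10 q 46.4), and its summit lay 443 bp downstream, the farthest among the 10 genes.

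Mief1 and Mief2, the related receptors that also recruit Dnm1l, differed in MOF. Mief1 (chromosome 15, plus strand, 19.3 kb) had a MOF peak at chr15:80233617-80234589, 973 bp wide, with a score of 616 (percentile 43.6) and an inner stretch from 219 to 505 bp downstream, in intron 1. Its H3K4me3 peak (chr15:80233572-80234779, 1208 bp) had a fold enrichment of 10.9 (percentile 83.9, −log10 q 68.0) and its H3K27Ac peak (chr15:80233622-80234581, 960 bp) one of 10.5 (percentile 93.6, −log10 q 36.7). Mief1 thus stood high in both marks and just under the middle of the MOF list. Mief2 (chromosome 11, plus strand, 4.55 kb, the shortest of the 10 genes) had no MOF peak nearer than 82308 bp from its TSS (chr11:60810706-60811557, score 768, at the start of Shmt1). Its H3K4me3 peak at chr11:60726554-60728684 was 2131 bp wide (width percentile 92.5) with a fold enrichment of 7.46 (percentile 44.8, −log10 q 44.7). Its H3K27Ac peak at chr11:60726678-60728533 was 1856 bp wide (width percentile 98.0) with a fold enrichment of 6.60 (percentile 52.9, −log10 q 23.8). Mief2 thus had the widest and among the lowest peaks of both marks, and these peaks reached back over the start of Flii, described below.

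The proteases that cut Opa1 carried the 2 highest MOF scores of the group. Oma1 (chromosome 4, plus strand, 52.6 kb) had a MOF peak at chr4:103313562-103314299, 738 bp wide, with a score of 1429, rank 232 of 5220 (percentile 95.6). The H3K4me3 peak at chr4:103313616-103314564 was 949 bp wide with a fold enrichment of 12.8 (percentile 94.1, −log10 q 67.1), and the H3K27Ac peak at chr4:103313641-103314397 was 757 bp wide with a fold enrichment of 7.56 (percentile 68.3, −log10 q 23.4). Exon 1 of Oma1 is only 38 bp long, so that the summits of both marks, 99 and 193 bp downstream, fell in intron 1.

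Yme1l1 (chromosome 2, plus strand, 42.8 kb) had the highest MOF score of the 10 genes, 1856, rank 78 of 5220 (percentile 98.5), at chr2:23155658-23156657 (1000 bp). The list divided this peak into 2 inner stretches, from 840 to 606 bp and from 385 bp upstream to 30 bp downstream of the TSS, and it gave 1 to each other MOF peak of the members. Yme1l1 also had the lowest H3K4me3 fold enrichment of the 10 genes, 6.27 (percentile 29.8, −log10 q 48.8), in a wide peak at chr2:23155270-23157133 (1864 bp, width percentile 85.9). The H3K27Ac peak at chr2:23155656-23156774 was 1119 bp wide with a fold enrichment of 6.64 (percentile 53.5, −log10 q 15.0). The highest MOF score and the lowest H3K4me3 height thus fell on the same promoter, and this promoter is shared with a second gene.

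**Figure D2:**
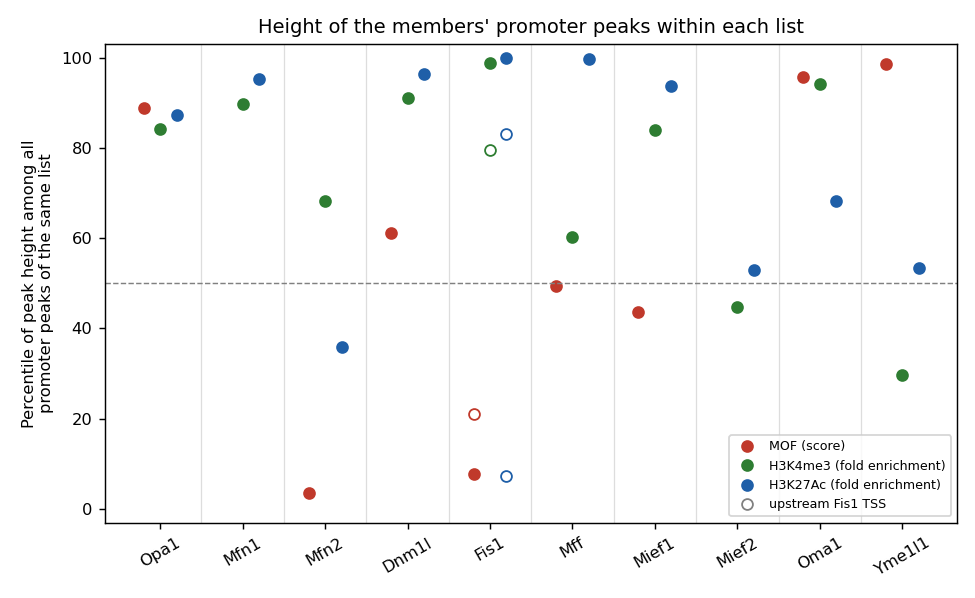
Percentile of the height of each member's promoter peak among all promoter peaks of the same list (y axis, MOF by score, the marks by fold enrichment), with open circles for the upstream start of Fis1 and a dashed line at the median. H3K4me3 and H3K27Ac lie mostly in the upper part while MOF is spread over the whole range, from 3.63 at Mfn2 to 98.5 at Yme1l1.

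Across the group, the marks stood high in their lists and MOF did not. The 11 H3K4me3 promoter peaks of the members had fold enrichments from 6.27 to 15.1 with a median of 10.9, against 7.87 over all H3K4me3 promoter peaks, and 9 of the 11 exceeded that median. The 12 H3K27Ac peaks ran from 3.69 to 18.0 with a median of 9.08, against 6.44, and 10 of the 12 exceeded it. The 9 MOF peaks ran from 339 to 1856 with a median of 651, the same as that of all MOF promoter peaks, and 4 of the 9 exceeded it. Widths were close to those of other promoter peaks, with medians of 973 against 981 bp for MOF, 1277 against 1227 bp for H3K4me3 and 856 against 839 bp for H3K27Ac.

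The marks did not separate the members with MOF from those without. At the 8 promoters with MOF the highest H3K4me3 fold enrichment ran from 6.27 to 15.1 and that of H3K27Ac from 5.56 to 18.0. The values of Mfn1 (11.8 and 10.9) and of Mief2 (7.46 and 6.60) lay inside both ranges. Over all genes with H3K4me3 at the promoter, the median H3K4me3 fold enrichment was 8.06 with MOF and 8.02 without, and the median H3K27Ac fold enrichment was 7.20 with MOF and 6.35 without.

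The position of the peaks relative to the TSS was also compared. The H3K4me3 summit lay downstream of the principal TSS at 9 of 10 members, against 62.4% of all genes with the mark, with a median of 168 bp against 94.0 bp. Yme1l1 was the exception, with a summit 84 bp upstream. The H3K27Ac summit lay downstream at 7 of 10 members, against 58.5%, with a median of 73.0 bp against 63.0 bp. The exceptions were Mief1 (132 bp upstream), Yme1l1 (506 bp upstream) and Mief2 (1019 bp upstream).

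At Yme1l1 and Mief2 these upstream summits lay near the start of another gene. Mastl, which encodes a mitotic kinase, starts on the opposite strand 481 bp upstream of Yme1l1 (at 23156024), and the same MOF, H3K4me3 and H3K27Ac peaks cover both starts. The H3K27Ac summit was 25 bp and the MOF centre 133 bp from the start of Mastl, while the H3K4me3 summit was 397 bp from it and nearer to Yme1l1. The start of Mastl lay between the inner MOF stretches, and the stretch nearer to Yme1l1 covered the TSS of Yme1l1. Flii, which encodes an actin-binding protein of the gelsolin family, starts on the opposite strand 1135 bp upstream of Mief2 (at 60727263), and shares its H3K4me3 and H3K27Ac peaks. There the H3K27Ac summit was 116 bp from Flii and 1019 bp from Mief2, and the H3K4me3 summit was 28 bp from Mief2 and 1163 bp from Flii. A microRNA gene, Mir5100, starts 265 bp downstream of the Mief2 TSS on the same strand, under the H3K4me3 peak and beyond the end of the H3K27Ac peak. The peaks of Yme1l1 and Mief2 can therefore not be assigned to 1 gene. An opposite-strand start within 1 kb was found at 1 of 10 members, against 24.3% of genes with H3K4me3.

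Peaks in the gene bodies were counted next. No MOF, Rfx2 or H3K4me3 peak lay in the gene body of any member, where 17.5%, 0.183% and 20.3% of all genes had one. H3K27Ac lay in the gene body of 1 of 10, against 20.5%. As gene bodies differ in length, the shares were also taken over the 9599 genes with H3K4me3 whose length lay between those of Mief2 (4554 bp) and Opa1 (75269 bp), and these were 18.9% for MOF, 0.250% for Rfx2, 24.1% for H3K4me3 and 27.6% for H3K27Ac. At these shares, counts of 0 or 1 of 10 do not set the group apart. The 1 peak was in intron 1 of Oma1 (chr4:103315923-103316400, 478 bp, fold enrichment 3.74, −log10 q 5.54), with its summit 2521 bp downstream of the TSS.

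H3K27Ac peaks without H3K4me3 were counted within 50 kb of each principal TSS where their centre lay more than 1 kb from any TSS. At least 1 was found at 6 of 10 members, against 48.8% of the 11552 genes with H3K27Ac at the promoter. Mfn2 and Fis1 had 2 each, the nearest 1549 and 9885 bp away, of which the latter is the smaller H3K27Ac peak at the upstream Fis1 start described above, whose edge reaches into the promoter window, and Opa1 (39324 bp), Mff (12160 bp), Mief2 (20659 bp) and Oma1 (2315 bp, the intronic peak above) had 1 each. None of these 8 peaks overlapped a MOF peak, against 383 of the 6227 such peaks near all genes with H3K27Ac (6.15%), so that 0 of 8 does not set them apart, and which gene such a peak acts on is not known from these lists.

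The distance to the nearest Rfx2 peak was also taken. The distance from the TSS was 459672 bp for Mief1 (to a peak at Dnal4), 568779 bp for Yme1l1 and 681864 bp for Mief2 (to a peak at Pemt). For Opa1, Mfn1, Dnm1l, Fis1, Mff and Oma1 it exceeded that of Mief2 and reached 8215699 bp at Mfn1. No X-box match was found in the promoter sequence of any member, and such a match was found in 3.86% of all promoters of the same length and in 4.84% of those of genes with H3K4me3.

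The group was then set beside other mitochondrial genes. A wider list of 42 genes of inner membrane shaping, proteolysis, outer membrane control and transport had MOF at 21 promoters (50%), H3K4me3 at 41 (97.6%), H3K27Ac at 39 (92.9%) and Rfx2 at 0. Gdap1, an outer membrane protein mutated in Charcot-Marie-Tooth neuropathy, was the gene without either mark, and Apoo, a subunit of the cristae-organising MICOS complex, and Spire1, an actin nucleator with a mitochondrial isoform, had H3K4me3 without H3K27Ac. The highest MOF scores of that list, picked after they were seen, were at Rhot1 (1296) and Trak2 (892), which link mitochondria to motor proteins. Of the genes for mitochondrial ribosomal proteins (Mrpl and Mrps), 56 of 78 had MOF (71.8%), and of the Timm and Tomm genes of protein import 15 of 26 (57.7%). Over only the genes of each list with H3K4me3, MOF lay at 51.2% of the wider list. It lay at 71.8% of such Mrpl and Mrps genes and at 62.5% of such Timm and Tomm genes. Each of these shares was above the 42.0% of all genes with H3K4me3, by least for the wider list, and none of these differences was tested. The 80.0% of the fusion and fission genes rests on 10 genes, where 1 gene more or less moves the share by 10 percentage points.

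**Figure D3:**
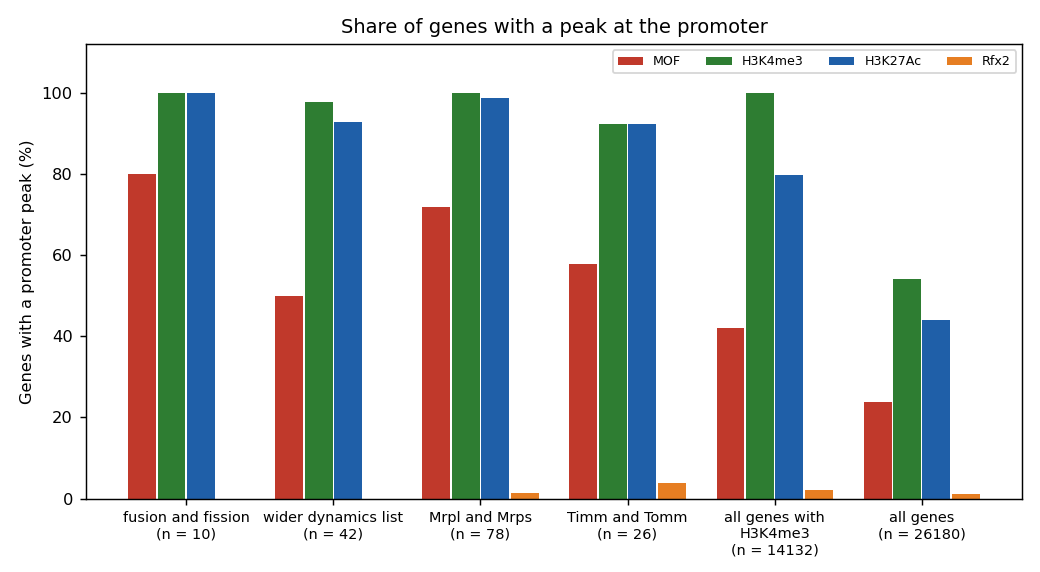
Share of genes (%) with a MOF (red), H3K4me3 (green), H3K27Ac (blue) or Rfx2 (orange) peak at the promoter, for the 10 fusion and fission genes, 3 other mitochondrial lists, all genes with H3K4me3 at the promoter and all genes, with n under each group. MOF lies at 80.0% of the fusion and fission genes, 71.8% of the mitochondrial ribosomal protein genes and 23.7% of all genes, and bars for Rfx2 stay at or near 0.

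The sequence of the promoters, which the choice of genes did not use, was described over 250 bp upstream to 50 bp downstream of the TSS. Values over all promoters include alternative starts, while those of the members are for principal starts unless another is named. The GC content of the 10 principal promoters ran from 49.0% (Mff) to 68.7% (Mief1) with a median of 55.2%, against 52.7% for all promoters and 61.3% for promoters of genes with H3K4me3. The ratio of observed to expected CpG ran from 0.36 at the principal start of Fis1 to 1.03 at Mff with a median of 0.82, against 0.38 and 0.76. Fis1 thus combined the highest H3K4me3 and H3K27Ac peaks of the group with the lowest CpG ratio, and its upstream start had a ratio of 0.70. The genes without MOF, Mfn1 (0.52) and Mief2 (0.80), lay inside the range of those with it.

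**Figure D4:**
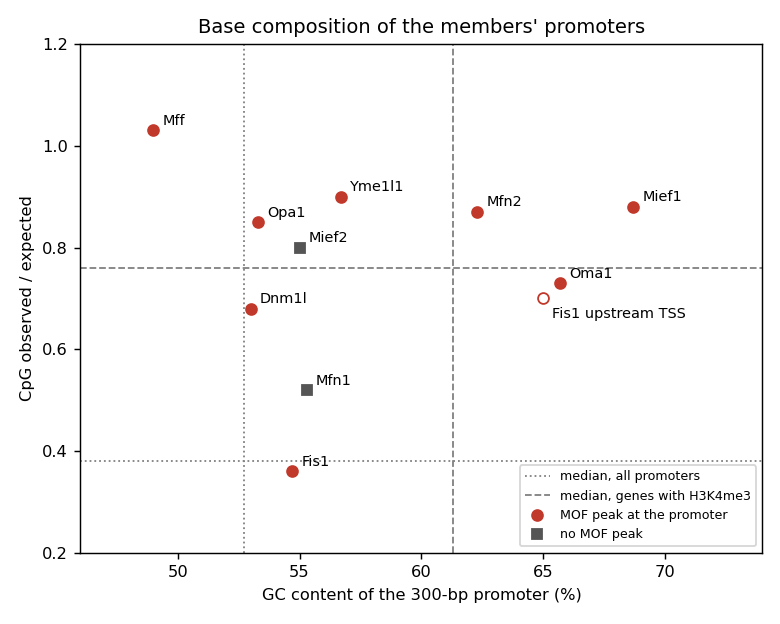
GC content (x axis, %) and CpG observed over expected (y axis) of the members' promoter sequences, with circles for genes with MOF, squares for those without, an open circle for the upstream start of Fis1, and lines at the medians of all promoters (dotted) and of genes with H3K4me3 (dashed). Mff lies highest at 1.03, Fis1 lowest at 0.36, and the squares of Mfn1 and Mief2 lie among the circles.

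Short motifs were searched on both strands of the same sequences. Member counts are those at principal starts, while the shares are over all annotated promoters, alternative starts included. An SP1 match (GGGCGG) was found at the principal start of 10 of 10 members, against 35.7% of all promoters and 64.2% of those with H3K4me3, and no member had a TATA box (TATAAA, 13.6% and 6.81%) or a CRE (TGACGTCA, 1.79% and 3.06%). Neither alternative start of Mfn2 held an SP1 match. The ETS motif (CCGGAAG) was found at the principal start of 4 members (Mfn1, Fis1, Mief1 and Yme1l1, the last with 3 matches), against 8.86% and 16.9%, and YY1 (AANATGGC) at 3 (Mfn1, Mff and Mief1), against 6.05% and 7.83%. Dnm1l held an ETS match at its other start only. NRF1 (GCGCANGCG) was found at Opa1 and Oma1, against 6.25% and 12.9%. A CCAAT box (CCAAT) was found at the principal start of 6 members, against 37.4% and 37.7%, an E-box (CACGTG) at Mief2, against 7.15% and 10%, and ZNF143 (ACTACAA) at Mfn2, against 3.24% and 3.82%. Fis1 held a CCAAT box at its upstream start only. Mfn1 held ETS, YY1 and SP1 matches without a MOF peak, so these matches were present with and without MOF.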

How the data were processed

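The study's methods state that MOF ChIPseq reads were single-end and Cut&Run reads paired-end, that both were aligned to mm10 by Bowtie2 in its very sensitive local mode, and that MACS2 called peaks library by library, in paired-end mode for Rfx2, H3K4me3 and H3K27Ac, and for MOF without a fragment model and with automatic handling of duplicates. The study also states tool versions and mapped reads per library, and no value was computed from these. No control library is named in the sources used here. The authors deposited narrow peak lists for Rfx2, H3K4me3 and H3K27Ac, with a score, a fold enrichment (a ratio over local background) and −log10 p- and q-values. The deposited MOF list is of another kind, with a score of unstated scale and inner blocks whose meaning is not stated. The labels attach the H3K4me3 list to the repeat library, but its peak names lack the mark of a repeat. H4K16Ac, H3K4me1 and the other H3K4me3 and H3K27Ac libraries were not analysed here.

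TSSs were those of curated RefSeq transcripts of GRCm38.p6, and the principal TSS was that of the RefSeq Select transcript. Where none was tagged, it was the TSS used by most curated transcripts, or the most upstream if tied. Widths, summit distances (centres for MOF) and height percentiles were computed in Python (3.11.15), and figures were drawn with matplotlib (3.10.9). A peak in the gene body overlapped the gene but none of its promoter windows. Overlap calls differed from bedtools (2.31.1) at 0 of 26180 genes with 20000 simulated peaks, and 200 of 200 planted promoter peaks were recovered. All 10 genes are named, with genes that share their promoters and, of the wider list, those with Rfx2 and those with H3K4me3 but without H3K27Ac. The 10 genes, the other lists and the comparisons were chosen with earlier results of these data known. Other promoter windows, TSS sets, overlap rules, peak thresholds and neighbour distances were tried as alternatives. 1 of the distances to the nearest Rfx2 peak is not reported here.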

Additional observations from a re-analysis of the deposited data

How the results depend on the processing

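Of 50 alternatives, 44 left their count within 1.5 times the value reported. This tally does not measure robustness, because many of these counts could not move. A stricter setting cannot lower a count of 0, such as the gene body counts of MOF, Rfx2 and H3K4me3. The windows of 1 kb and 2.5 kb contain the main window. They cannot lower the promoter counts of H3K4me3 and H3K27Ac, which already held all members. MOF stayed at 8 members with windows of 500 bp, 1 kb and 2.5 kb on either side, with principal TSSs only and with protein-coding transcripts only. The shares of all genes under these settings were 24.3%, 25.6%, 27.8%, 22.8% and 26.6%, in the same order. It was at 7 with the peak centre inside the window (without Dnm1l, against 14.7% of all genes) and at 6 with the 50% of peaks of highest score (without Fis1 and Mfn2, against 14.6%). Rfx2 was at 0 under all 7 promoter alternatives, of which only the windows of 500 bp, 1 kb and 2.5 kb could have raised the count. With the peak centre inside the window, H3K4me3 was at 5 members (without Opa1, Mfn1, Mfn2, Mff and Oma1, against 25.5% of all genes) and H3K27Ac at 6 (without Opa1, Mfn1, Mff and Oma1, against 26.2%), since the centres of these peaks lie over 100 bp downstream. With the upper 50% of peaks, MOF was at 13 of the wider list instead of 21. The H3K27Ac gene body count fell to 0 with the upper 50% of peaks and to 0 with 2.5 kb around each TSS left out, and 2 members had an opposite-strand start within 2 kb, against 26.7% of genes with H3K4me3. No paired analysis was possible because there was 1 list for each antibody, and leaving out a replicate could not be done for the same reason. The lists hold no read counts, so a missing peak says only that none was called.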
